A study of Mus musculus with 3 samples.

Results

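The genes described here are 57 genes of mouse DNA repair, taken as every non-control probe on the arrays whose gene name is one of 57 listed symbols. All 57 listed genes were found, as 106 of 41167 probes and 57 of 27724 genes. They cover direct reversal, mismatch repair, base excision repair, nucleotide excision repair, homologous recombination, break sensing with its checkpoint kinases, non-homologous end joining, Fanconi crosslink repair and the RecQ helicases.

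Expression was measured on 1 array for each of 3 groups of C3H10T1/2 cultures, a mouse embryonic line of fibroblast-like cells that is used in transformation assays. One group was left untreated, 1 received hexavalent chromium, Cr(VI), at 0.01 uM and 1 received it at 1 uM. Cells were seeded at 2000 per flask in DMEM with 3 flasks per group, chromium was added after 24 h, left on for 48 h and then washed off. Cultures were kept in fresh medium to day 15 and harvested, and RNA for the arrays was made from a portion of those cells, so the values describe cells many days after exposure had ended. The labels do not say whether the flasks of a group were pooled. All groups are the same line in the same medium, and the labels name no added gene or deletion. With 1 array per group there is no replicate error, so no p-value is given, and every difference is between these 3 RNA samples.

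Each repair pathway handles its own kind of lesion. Mismatch repair removes wrongly paired bases after replication, base excision repair removes small oxidised, alkylated or deaminated bases, and nucleotide excision repair cuts out bulky adducts as a short single strand. Breaks in both strands are sensed by kinases and joined either by homologous recombination with a sister copy or by direct end joining. Inside cells Cr(VI) is reduced to Cr(III), and the reaction yields oxidised bases, Cr-DNA adducts, crosslinks and strand breaks, which is why repair genes are of interest after this exposure.

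A level is the log2 signal of a gene's brightest probe minus the 75th percentile of all probes on that array. Levels of different probes are not comparable, so only differences between arrays are read. A gene counts as 2-fold apart, the main threshold, or as 1.5-fold apart, the lower one. The standard error (SE) of a log2 difference comes from the scanner's error estimate for each spot, was 0.21 at the median, and does not include differences between cultures. Where 1 of the 2 arrays was not well above background, only a bound of the fold is given. Of 41167 probes, 41.8% were well above background on the untreated array, 36.4% at 0.01 uM and 41.5% at 1 uM. Fibroblast markers were detected for 11 of 12 genes in untreated cells, 11 at 0.01 uM and 10 at 1 uM, where Thy1 was not well above background and was at least 50.2-fold lower than in untreated cells. Over the 11 fibroblast markers compared at 1 uM the median log2 difference was -0.37, with 1 above 0 and 7 below, 4 at least 1.5-fold lower and 2 of these at least 2-fold lower. Leukocyte markers were detected for 3 of 11 genes (Cd68, Cd14 and Lyz2) on each array, with Ptprc and Tyrobp below background. Of 8 epithelial and endothelial markers, Cdh5 alone was detected, at 1 uM, at least 3.78-fold above untreated. Their part in the results was not tested, and in a bulk sample fewer cells of a type and less RNA per cell cannot be told apart.

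Probes of 6 of the 12 genes at least 1.5-fold apart at 1 uM are shown as the array files list them, 5′ to 3′, with mm9 coordinates, since a difference rests on these 60 letters. They were picked to show both directions and several pathways. They are Lig4 (chr8:9970290-9970349, minus strand, and chr8:9971496-9971555, minus strand), Xpa (chr4:46197241-46197300, minus strand), Nthl1 (chr17:24775385-24775444, plus strand), Exo1 (chr1:177838682-177838741, plus strand) and Apex1 (chr14:51546483-51546542, plus strand). Prkdc has 1 probe, whose coordinates cover more than its 60 bases (chr16:15839317-15841922, plus strand).
Lig4, brighter probe: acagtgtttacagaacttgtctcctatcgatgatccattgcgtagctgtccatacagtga
Lig4, other probe: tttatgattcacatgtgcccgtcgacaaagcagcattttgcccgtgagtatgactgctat
Xpa: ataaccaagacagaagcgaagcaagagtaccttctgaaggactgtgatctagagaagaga
Nthl1: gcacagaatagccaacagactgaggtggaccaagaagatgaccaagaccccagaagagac
Exo1: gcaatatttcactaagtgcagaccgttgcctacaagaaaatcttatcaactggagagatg
Apex1: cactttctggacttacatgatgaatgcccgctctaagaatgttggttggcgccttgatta
Prkdc: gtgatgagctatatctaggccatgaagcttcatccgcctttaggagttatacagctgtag

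Of the 57 genes, 48 were well above background on all 3 arrays. Mgmt, Mlh3, Ercc6, Chek1 and Lig4 were so on some arrays. Ercc2, Bard1, Palb2 and Wrn were on none, and no repair gene was saturated. This leaves 53 genes to compare with untreated cells at each dose, and 52 between the doses.

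At 1 uM more repair genes were above untreated than below. Lig4 was at least 2-fold higher, 1 of 53 against 5.67% of all 12452 genes compared, and Mgmt was at least 2-fold lower, 1 of 53 against 4.86% of all genes. At the 1.5-fold threshold 9 were higher (17.0%, against 13.9% of all genes) and 3 were lower (5.66%, against 13.4%). The 9 were Lig4, Exo1, Ung, Msh3, Msh6, Rad51c, Prkdc, Chek1 and Apex1, and the 3 were Mgmt, Nthl1 and Xpa. Of the 53, 40 lay above 0 (75.5%, against 46.8% of all genes). The median log2 difference of the repair genes was 0.19, against -0.04 for all genes compared. Medians in the text use the signal of dim arrays as measured, and the counts use bounds. With bounds the 2 medians were 0.19 and -0.02. The spread of the repair genes was narrower, with an SD of 0.40 over the 48 genes detected on all arrays, against 0.58 over 10575 genes. These 48 leave out Lig4 and Mgmt. The median size of the difference, up or down, was similar over the same sets, 0.28 against 0.31.

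At 0.01 uM no repair gene had a difference or bound of 2-fold or more on its brightest probe, where 0.269% of 11916 genes were higher and 0.168% lower. The other Parp1 probe, described below, was more than 2-fold higher. A bound under 2-fold does not show that the gene was less than 2-fold apart, which applies to Mgmt (at least 1.61-fold lower), Ercc6 (at least 1.39-fold lower) and the other 3 genes that were dim at 0.01 uM. None was called 1.5-fold higher (0.898% of all genes), and Mgmt was called 1.5-fold lower (1.13% of all genes). These calls depended on the setting. Mgmt lay under 1.5-fold with spike-in scaling (-0.39) and normexp (-0.46), Mutyh (0.69) and Rad54l (0.67) passed it upwards with spike-in scaling, and Parp1 (0.59) did with the mean of all probes. Of 53, 26 were above 0, against 57.4% of all genes. The median was 0.01, against 0.05 for all genes, and with bounds these were 0 and 0.03. The SD over the 48 detected genes was 0.18, against 0.20 over all genes. Both doses share the untreated array, so the lists from the 2 comparisons are not independent.

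**Figure D1:**
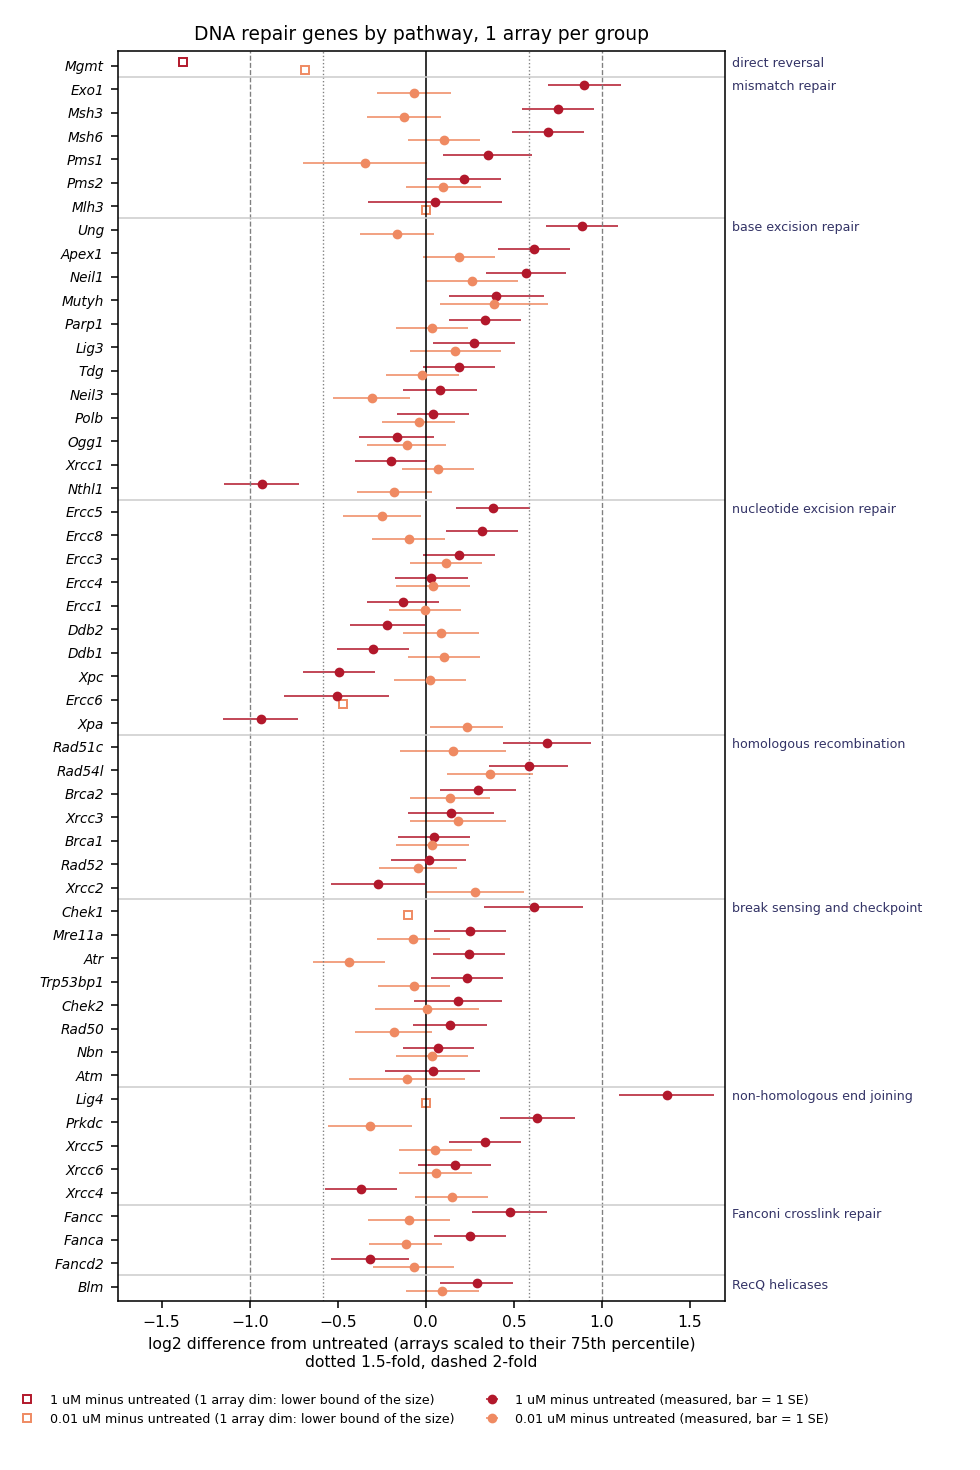
Log2 difference from untreated of the 53 repair genes compared, by pathway, at 1 uM (dark) and 0.01 uM (light), 1 array per group; bars are 1 SE, hollow squares are bounds and a bound of 0 means that no fold could be given. The 1 uM points spread wider than the 0.01 uM points, Lig4 is the only one past the dashed 2-fold line on the right and Mgmt the only one past it on the left.

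Between the treated groups, Lig4 and Ung passed 2-fold upwards at 1 uM relative to 0.01 uM (2 of 52, against 5.2% of 12060 genes) and Xpa passed it downwards (1 of 52, against 6.45%). Of the 52, 37 were above 0 (71.2%, against 42% of all genes). At 1.5-fold, 10 were higher (12.4% of all genes) and 2, Nthl1 and Xpa, lower (17.3% of all genes). The 10 were Lig4, Ung, Exo1, Msh3, Msh6, Pms1, Ercc5, Atr, Chek1 and Prkdc. The 1 uM array was the highest of the 3 for 35 of the 48 genes detected throughout (72.9%), against 37.5% of 10575 genes, and the lowest for 11 (22.9%), against 52.9%.

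Direct reversal is represented by Mgmt, the methyltransferase that takes alkyl groups off guanine and is used up in doing so. Its level was -1.42 in untreated cells, -4.38 at 0.01 uM and -5.07 at 1 uM, and both treated values were not well above background. It was at least 2.61-fold lower at 1 uM and at least 1.61-fold lower at 0.01 uM. The log2 bound at 1 uM depended on the setting, from -1.84 with normexp to -0.70, under 2-fold, with spike-in scaling. These values rest on 1 spot per array, and the other Mgmt probe was not well above background on any array. Of 3 dioxygenases that also reverse alkylation, Alkbh1, Alkbh2 and Alkbh3, none had a difference or bound of 1.5-fold at 1 uM. For Alkbh2, which was not well above background in untreated cells, this is a bound of at least 1.48-fold higher.

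Mismatch repair held the highest median of the pathways with at least 3 genes compared, 0.52 at 1 uM against -0.04 for all genes. All 6 of its genes were above 0, against 46.8% of all genes. Of these Mlh3 lay within 1 SE of 0, at 0.05 (SE 0.38), and was at -0.07 with quantile normalization. Exo1, the exonuclease that removes the strand with the error, had levels of 0.47, 0.41 and 1.37 in untreated, 0.01 uM and 1 uM cells. It was 1.87-fold higher at 1 uM (0.90 on the log2 scale, SE 0.21). Msh3, which recognises larger loops, had levels of 0.67, 0.54 and 1.42 in the same order, 1.68-fold higher at 1 uM. The 1 uM array stood apart for both, and the 0.01 uM array lay within 1 SE of untreated. Msh6, which recognises base mismatches, had levels of 3.49, 3.59 and 4.18 and was 1.62-fold higher at 1 uM.

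The MutL partners differed less. Pms1 had levels of -1.38, -1.73 and -1.03 in untreated, 0.01 uM and 1 uM cells, so that 1 uM was 1.62-fold above 0.01 uM (0.70, SE 0.35, and 0.21 with normexp). Pms2, the subunit with the nicking activity, had levels of 0.29, 0.39 and 0.51, a log2 difference of 0.22 at 1 uM (SE 0.21). Mlh3 had levels of -2.39, -2.54 (not well above background) and -2.34.

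**Figure D2:**
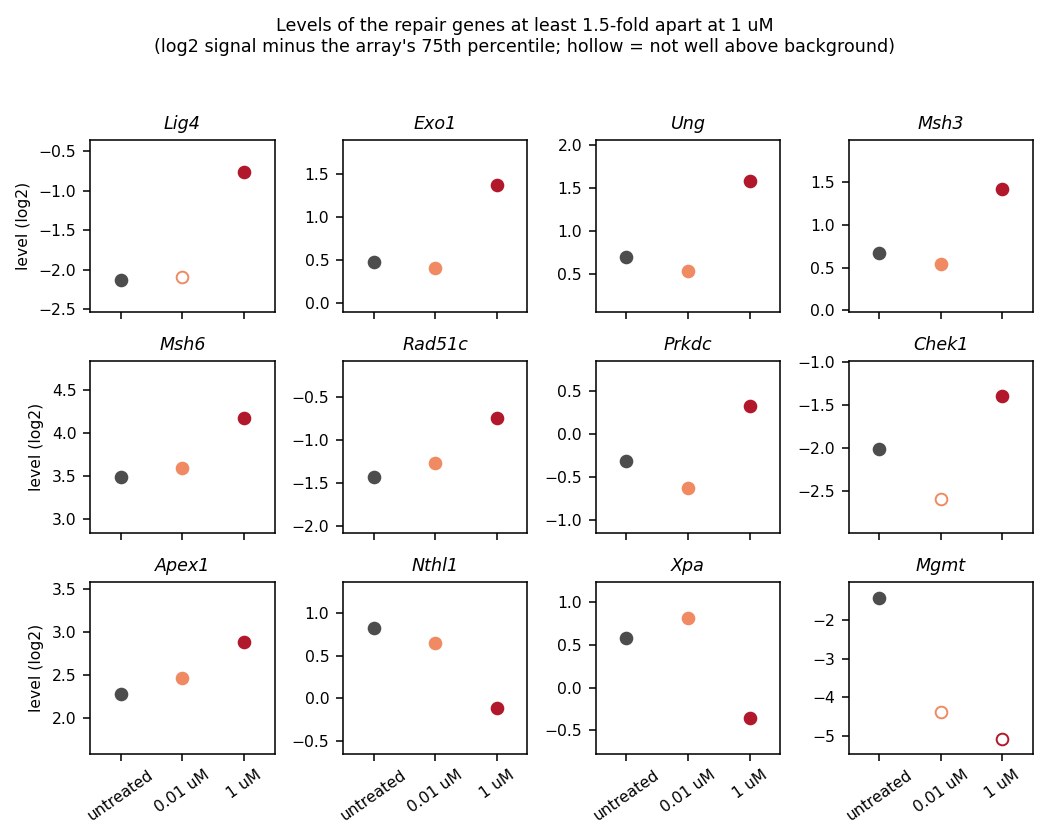
Level (log2 signal minus the array's 75th percentile) of the 12 repair genes at least 1.5-fold apart at 1 uM, on the untreated, 0.01 uM and 1 uM arrays; each panel has its own vertical axis and hollow points were not well above background. In the 9 genes that were higher the 1 uM point stands above both others, and in Nthl1 and Xpa it stands below both.

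Base excision repair moved in both directions at 1 uM. Of its 12 genes 9 were above 0, against 46.8% of all genes, and the median was 0.23. Ung, the glycosylase that removes uracil, had levels of 0.69, 0.53 and 1.57 in untreated, 0.01 uM and 1 uM cells, 1.85-fold higher at 1 uM. Apex1, the endonuclease that cuts at the site left without a base, had levels of 2.28, 2.47 and 2.89, 1.53-fold higher at 1 uM. Nthl1, a glycosylase for oxidised pyrimidines, went the other way, with levels of 0.82, 0.64 and -0.11, 1.91-fold lower at 1 uM (-0.93, SE 0.21). With spike-in scaling it was at -0.26, under 1.5-fold.

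Other glycosylases stayed under 1.5-fold. Neil1, also for oxidised bases, was just under that limit with a log2 difference of 0.57 at 1 uM (SE 0.23). Ogg1 and Mutyh, which act on 8-oxoguanine and on the adenine paired with it, had differences of -0.17 and 0.40. Neil3 and Tdg had 0.08 and 0.19. At 0.01 uM Mutyh had the largest positive difference among the brightest probes of the repair genes, 0.39, with an SE of 0.31.

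On their brightest probes the later steps of base excision gave differences between -0.20 and 0.34 at 1 uM. A further Polb probe gave 1.42 and the other Parp1 probe 1.30, as described below. Xrcc1, the scaffold for the ligation step, had levels of 3.51, 3.58 and 3.31 in untreated, 0.01 uM and 1 uM cells. Polb, the gap-filling polymerase, had levels of 1.86, 1.82 and 1.90, and Lig3, the ligase, had a difference of 0.27. Parp1, the strand-break sensor, had levels of 1.79, 1.83 and 2.13, a difference of 0.34 (SE 0.20).

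Nucleotide excision repair was the only pathway with at least 3 genes compared whose median was below 0 at 1 uM. The median was -0.17, against -0.04 for all genes. Of its 10 genes 6 were below 0, where 6380 of all 12452 genes were. Of the 10, 1, Xpa, was at least 1.5-fold lower (13.4% of all genes). Over 17 further nucleotide excision genes, outside the 57, the median was 0.02, with 9 above 0 and 8 below. With scaling on the spike-in controls the median of the 10 genes was 0.50, where the median of all genes was 0.63. Xpa, which verifies the lesion and holds the incision complex together, had levels of 0.58, 0.81 and -0.36 in untreated, 0.01 uM and 1 uM cells. It was 1.91-fold lower at 1 uM than in untreated cells (-0.94, SE 0.21) and 2.25-fold lower than at 0.01 uM. Xpc, which finds distorted DNA across the genome, had levels of 1.47, 1.49 and 0.98, a difference of -0.49 at 1 uM.

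Of the other damage-recognition genes, 3 of 4 were below 0 at 1 uM, where 6380 of all 12452 genes were. Ddb1, which with Ddb2 forms the UV-damage binding complex, had levels of 4.09, 4.19 and 3.79 in untreated, 0.01 uM and 1 uM cells, a difference of -0.30, and Ddb2 had -0.22. Ercc6, which starts repair where RNA polymerase has stalled, had levels of -1.64, -3.11 (not well above background) and -2.15, a difference of -0.51 at 1 uM (SE 0.30). With normexp the Ercc6 difference was -0.11. Its partner Ercc8 had levels of 1.48, 1.38 and 1.80, a difference of 0.32. Under spike-in scaling Xpc (0.18), Ercc6 (0.17), Ddb1 (0.38) and Ddb2 (0.46) lay above 0, and Xpa was at -0.26, under 1.5-fold.

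The helicase and nucleases showed no shared direction. Ercc3, a helicase of TFIIH, had levels of 2.06, 2.17 and 2.24 in untreated, 0.01 uM and 1 uM cells. Ercc1, the partner of the nuclease Ercc4, had levels of 2.81, 2.80 and 2.68, and Ercc4 had a difference of 0.03 at 1 uM. Ercc5, the nuclease that cuts on the other side of the lesion, had levels of 0.03, -0.21 and 0.42, so that 1 uM was 1.55-fold above 0.01 uM (0.63, SE 0.22).

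Homologous recombination had a median of 0.14 at 1 uM, with 6 of 7 genes above 0 (46.8% of all genes). At 0.01 uM its median was 0.15, also with 6 of 7 above 0 (57.4% of all genes). At 1 uM 1 gene was at least 1.5-fold higher (13.9% of all genes). That gene was Rad51c, which acts in strand exchange, with levels of -1.43, -1.27 and -0.74 in untreated, 0.01 uM and 1 uM cells, 1.61-fold higher at 1 uM (0.69, SE 0.25). With normexp background correction its difference was 0.41, under 1.5-fold. Rad54l, a motor protein that moves along DNA, lay just under the 1.5-fold limit at 0.58. Xrcc2, which also acts in strand exchange, was the gene below 0, at -0.27.

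The breast cancer genes moved less. Brca1 had levels of 1.22, 1.26 and 1.27 in untreated, 0.01 uM and 1 uM cells, and Brca2, which is needed for strand exchange, had levels of 0.09, 0.23 and 0.39. Rad52 had levels of -0.10, -0.14 and -0.08. Xrcc3 had a difference of 0.14 at 1 uM. At that dose Brca1, Rad52 and Xrcc3 lay within 1 SE of 0, and the other Rad52 probe gave -0.09.

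All 8 break-sensing and checkpoint genes were above 0 at 1 uM on their brightest probe, against 46.8% of all genes, with a median of 0.21. Atm, Nbn, Rad50 and Chek2 lay within 1 SE of 0. A further probe of Mre11a gave -0.09 and the other Nbn probe gave -0.10. Of the 8, 1 was at least 1.5-fold higher, against 13.9% of all genes. That gene was Chek1, the kinase that acts below Atr, with levels of -2.01, -2.59 (not well above background) and -1.40 in untreated, 0.01 uM and 1 uM cells, 1.53-fold higher at 1 uM. Its difference was under 1.5-fold with normexp (0.49) and with quantile normalization (0.57), and its other probe was not well above background in untreated cells. Atr, the kinase that senses single-stranded DNA, had levels of 2.20, 1.76 and 2.45. It was lowest at 0.01 uM, with a difference of -0.44 from untreated (SE 0.21), and 1 uM was 1.61-fold above 0.01 uM. A further Atr probe gave -0.51 at 0.01 uM.

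Of the break-sensing MRN complex, Nbn had levels of 2.48, 2.52 and 2.56 and Mre11a had a difference of 0.25 at 1 uM. Rad50, its remaining subunit, had 0.14. Trp53bp1, which steers breaks towards end joining, had levels of 2.14, 2.08 and 2.38. Atm, the kinase that senses double-strand breaks, had 0.04 at 1 uM, and Chek2, its target kinase, had 0.18.

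Among brightest probes well above background on both arrays, the largest difference at 1 uM was in non-homologous end joining. Lig4, the ligase of the pathway, had levels of -2.14, -2.09 (not well above background) and -0.77 in untreated, 0.01 uM and 1 uM cells. It was 2.58-fold higher at 1 uM than in untreated cells (1.37, SE 0.27) and at least 2.5-fold above its 0.01 uM level. Its other probe had a level of -1.96 at 1 uM and was not well above background on the other 2 arrays. With normexp background correction the difference at 1 uM was 0.90, under 2-fold.

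Prkdc, the catalytic subunit of the DNA-dependent kinase, was measured by 10 spots per array. Their levels ran from -0.42 to -0.15 in untreated cells, from -0.89 to -0.40 at 0.01 uM and from 0.20 to 0.44 at 1 uM. The 1 uM spots overlapped neither of the other arrays, and the 0.01 uM spots overlapped the untreated spots at their edge. The means were 0.32 ± 0.06 at 1 uM and -0.31 ± 0.08 in untreated cells (SD over 10 spots of 1 array each, a measure of the array and not of the cultures), 1.55-fold higher at 1 uM. With normexp the difference was 0.54, under 1.5-fold. The 2 Ku subunits that hold the broken ends, Xrcc5 and Xrcc6, had levels of 0.76, 0.82 and 1.1, and of 1.20, 1.26 and 1.37. Xrcc4, the partner of Lig4, was below untreated, with levels of 1.15, 1.30 and 0.78 and a difference of -0.37 at 1 uM (SE 0.21).

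**Figure D3:**
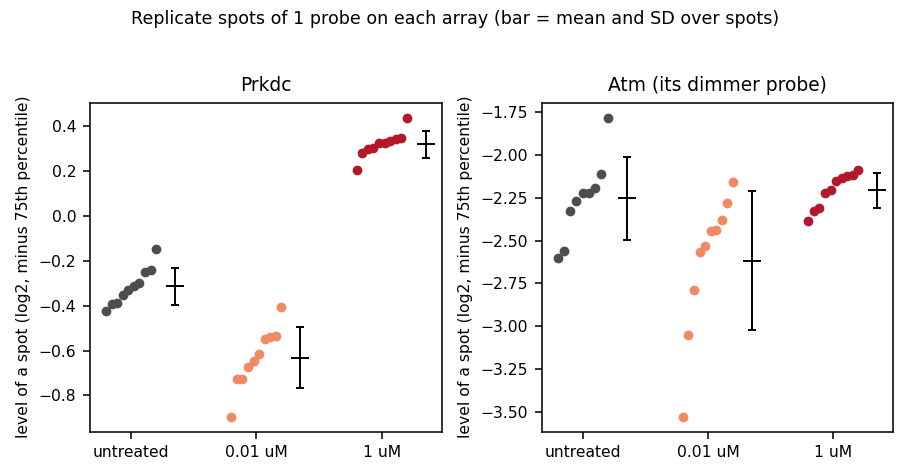
Levels of the replicate spots of 1 Prkdc probe and of the dimmer Atm probe on each array, sorted by level within an array, with the mean and SD over spots. Prkdc spots at 1 uM lie between 0.20 and 0.44, above all spots of the other arrays, and Atm spots overlap across the arrays, with the widest spread at 0.01 uM, where that probe was not well above background.

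Of the Fanconi genes, which unhook crosslinks between strands, Fanca had levels of 1.68, 1.56 and 1.93 in untreated, 0.01 uM and 1 uM cells. Fancc had levels of -0.42, -0.52 and 0.05, a difference of 0.48 at 1 uM. Fancd2, which is ubiquitinated by the Fanconi core complex, had levels of -0.36, -0.43 and -0.68, a difference of -0.32. Blm, a RecQ helicase that dissolves crossed-over strands, had levels of 1.05, 1.14 and 1.33.

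Of the 36 repair genes with 2 or more probes, 16 had at least 2 well above background on both the 1 uM and the untreated array. No gene at least 1.5-fold apart at 1 uM in the main setting is among these 16. Those differences therefore have no second probe measured on both arrays. Within the 16 genes, the differences of the probes had 1 sign in 13 and lay within 1.5-fold of each other in 14, with a median range of 0.12. Signs differed in Mre11a, Nbn and Rad52. The 2 Xpc probes gave -0.49 and -0.51, and the 2 Xrcc4 probes -0.37 and -0.38.

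Polb and Parp1 were the exceptions. The brightest Polb probe gave 0.04 at 1 uM and another gave 1.42, with levels of -2.17, -2.38 (not well above background) and -0.75 in untreated, 0.01 uM and 1 uM cells. The 2 Parp1 probes (chr1:182530321-182530619 and chr1:182530341-182530639, plus strand) share 40 of their 60 bases, shown in capitals.
Parp1, brighter probe: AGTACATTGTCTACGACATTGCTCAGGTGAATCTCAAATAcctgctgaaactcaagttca
Parp1, other probe: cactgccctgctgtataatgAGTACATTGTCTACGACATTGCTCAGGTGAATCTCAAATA
The other probe had levels of 0.35, 1.49 and 1.65 in untreated, 0.01 uM and 1 uM cells, so its difference was 1.30 at 1 uM and 1.15 at 0.01 uM, against 0.34 and 0.04 for the brighter probe. On that probe the untreated array stood apart from both treated arrays, and on the brighter one it did not.

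**Figure D4:**
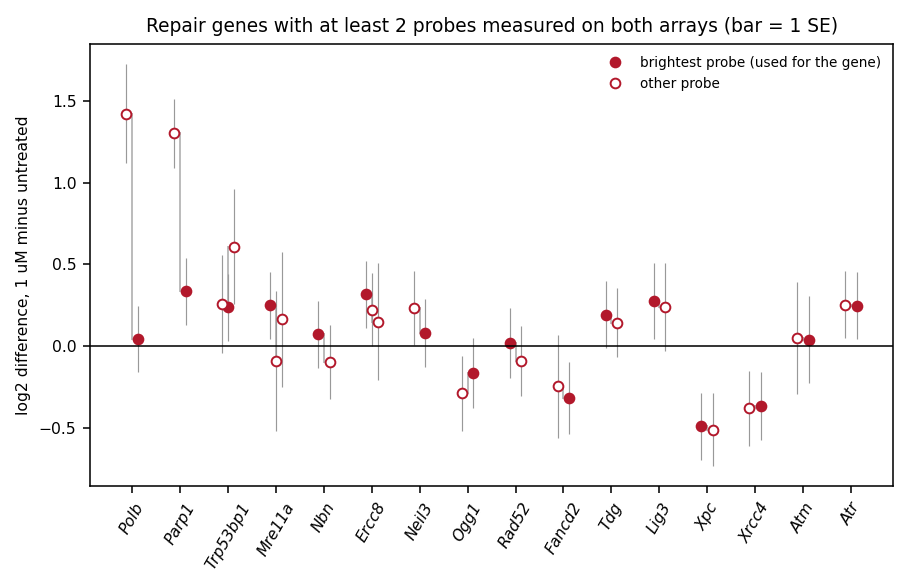
Log2 difference, 1 uM minus untreated, of each probe of the 16 repair genes with at least 2 probes well above background on both arrays; filled points are the probe used for the gene, hollow points the others, bars 1 SE. Probes of a gene lie close together except for Polb, with 0.04 and 1.42, and Parp1, with 0.34 and 1.30.

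Other genes of the same processes were counted from lists that do not hold the 57. The shares to set these counts against are those of all genes at 1 uM, 13.9% at least 1.5-fold higher and 13.4% lower. Of 17 further base excision genes 16 were compared at 1 uM, and 2 were at least 1.5-fold higher, Apex2 (1.77-fold) and Parp3 (1.63-fold), and none lower. Of 17 further nucleotide excision genes, Uvssa was at least 2.45-fold higher and Mnat1 was 1.64-fold lower. Of 23 further break repair genes, 3 passed the 1.5-fold threshold upwards and 2 downwards, among them Topbp1 (1.92-fold higher) and Aplf (1.92-fold lower). Of 17 further crosslink repair genes compared 3 were higher, Recql4, Uhrf1 and Recql, and none lower. Of 9 translesion polymerases and their partners 1, Rev1, was 2.29-fold higher. At 0.01 uM, Rnf8, a ubiquitin ligase at breaks, was the gene of these lists at least 1.5-fold apart, with a log2 difference of 0.67.

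Replication genes and p53 targets were set beside them, since repair genes are often made in S phase or after p53 is activated. All 34 replication genes were compared at 1 uM, with 28 above 0 and 6 below, where 46.8% of all genes were above 0. Of the 34, 7 were at least 1.5-fold higher and none lower, against 13.9% and 13.4% of all genes. Their median was 0.25, against 0.19 for the repair genes and -0.04 for all genes. The 7 included Ccne1 (2.25-fold), Gins1 (1.93-fold) and Prim1 (1.69-fold). The p53 targets had a median of -0.07 over 21 genes. Of these, 2 were at least 1.5-fold higher and 3 lower, where 13.9% and 13.4% of all genes were. Of the 3, Btg2 was 3.96-fold lower. How far these lists share a cause with the repair genes was not tested.

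**Figure D5:**
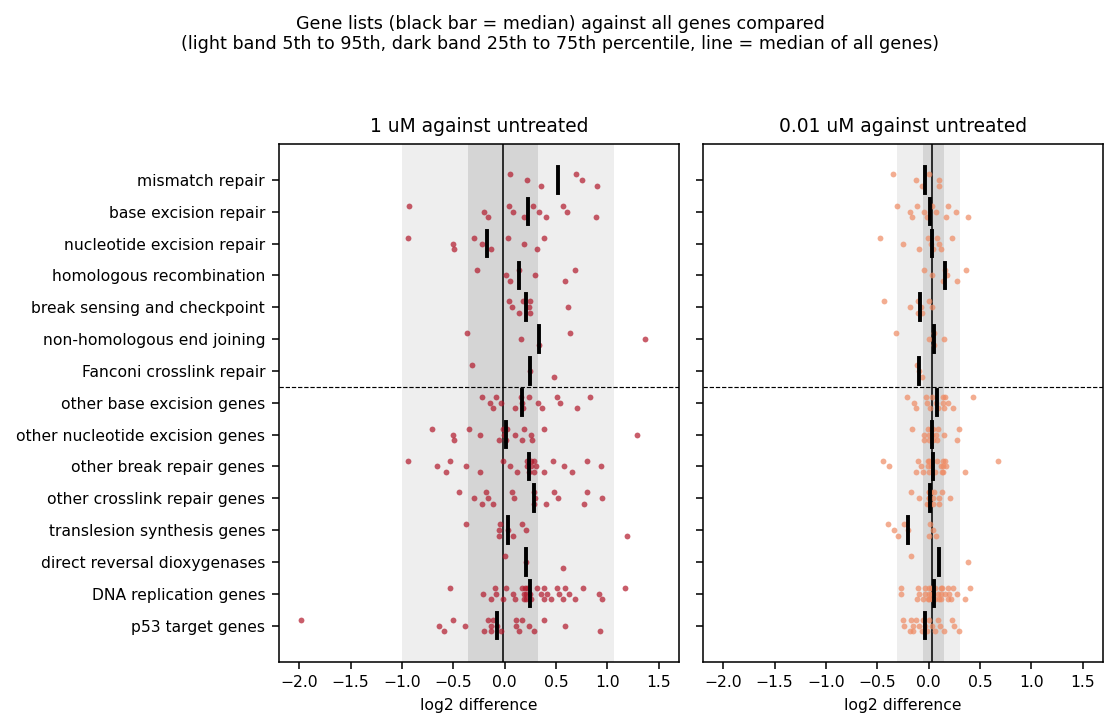
Log2 differences from untreated of repair pathways (above the dashed line) and other gene lists (below it) at 1 uM and 0.01 uM, each point a gene and the black bar its median, with bounds used where 1 array was dim; grey bands and the line give the percentiles and median of all genes compared. Pathways with under 3 genes and the cell type markers are not drawn. At 1 uM the bars of mismatch repair (0.52) and end joining (0.34) lie farthest to the right of those drawn and that of nucleotide excision repair (-0.17) farthest to the left.

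Promoter sequence was examined for 46 of the 57 genes, those with an entry in the RefSeq table of build GRCm38.p6, as windows of 250 bases before to 50 after each start. The letters TTTCCCGC, TTTGGCGC, TTTCGCGC and TTTGCCGC, forms of the E2F site, were sought on both strands, with overlapping matches counted. At least 1 match was in a window of 8 of the 46 genes (17.4%), against 2.61% of 27025 genes. Windows of the repair genes held 59.6% G and C on average, against 53.8% over 32851 windows, and the motif is itself rich in G and C. The 8 were Msh3, Msh6, Nthl1, Brca2, Bard1, Rad51c, Chek2 and Xrcc6, so they include 3 of the genes higher at 1 uM and 1 of those lower. The promoters of Msh3 (chr13:92354954-92355253, minus strand), Msh6 (chr17:87974800-87975099, plus strand) and Nthl1 (chr17:24632432-24632731, plus strand) are shown with matches in capitals, as genes that hold the motif and moved in opposite directions. A match describes the letters and does not show that a factor binds.
Msh3: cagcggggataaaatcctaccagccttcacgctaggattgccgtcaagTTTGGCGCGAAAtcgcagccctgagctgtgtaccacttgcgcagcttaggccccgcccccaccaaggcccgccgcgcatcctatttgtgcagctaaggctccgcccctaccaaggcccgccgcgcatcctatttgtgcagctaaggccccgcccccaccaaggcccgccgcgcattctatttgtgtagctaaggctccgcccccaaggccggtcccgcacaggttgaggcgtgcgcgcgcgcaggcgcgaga
Msh6: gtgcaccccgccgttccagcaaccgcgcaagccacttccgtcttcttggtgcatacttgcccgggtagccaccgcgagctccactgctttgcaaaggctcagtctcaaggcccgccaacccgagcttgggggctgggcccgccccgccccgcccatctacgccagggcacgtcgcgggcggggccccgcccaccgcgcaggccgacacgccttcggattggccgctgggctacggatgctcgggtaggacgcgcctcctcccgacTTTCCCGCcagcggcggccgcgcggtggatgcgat
Nthl1: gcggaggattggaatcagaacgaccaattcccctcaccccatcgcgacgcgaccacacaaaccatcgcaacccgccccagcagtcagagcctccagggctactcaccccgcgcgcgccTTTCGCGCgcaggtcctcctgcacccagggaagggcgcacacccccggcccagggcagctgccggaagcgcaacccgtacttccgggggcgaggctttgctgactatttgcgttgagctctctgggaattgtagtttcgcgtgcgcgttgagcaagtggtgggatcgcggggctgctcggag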

How the data were processed

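Per the file headers, the deposited spot intensity comes from Agilent Feature Extraction 10.5.1.1 on a 1-colour scan and is background-subtracted and detrended. Coordinates are of build mm9. The authors' deposited value table holds log2 values. Every column differed from log2 signal by 1 constant (9.45 untreated, 9.01 at 0.01 uM, 9.56 at 1 uM), within 0.01 for over 99.8% of probes, so its scale and centring are those used here. The sources used here do not state how it was made. Its column medians were -4.23, -3.96 and -4.03.

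Control spots and outlier spots were left out, spots of a probe were averaged, and each array's 75th percentile was subtracted. A gene was compared where well above background on at least 1 of 2 arrays. For a bound, the bright value was set against the dim one, or against that array's lowest detected signal where this was higher. The comparisons were 1 uM and 0.01 uM against untreated, and 1 uM against 0.01 uM. The repair genes and lists were chosen with earlier results of these data known. Values on every array are given for repair genes at least 1.5-fold apart in any comparison and for the 3 brightest of each pathway. From the other lists, up to 4 genes with the largest difference among those 1.5-fold apart at 1 uM were eligible to be named, with all past 2-fold. A gene that met this rule is not reported here. Alternatives, 10 settings and the 1.5-fold threshold, covered scaling, background correction (normexp in limma 3.58.1, R 4.3.3, offset 50), dim probes, probes, spots and the authors' table. Other steps used Python 3.11.15, numpy 2.4.6, pandas 2.3.3 and statsmodels 0.14.6, tested on simulated data. Precision is limited by there being 3 arrays.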

Additional observations from a re-analysis of the deposited data

How the results depend on the processing

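The 2 repair genes past 2-fold at 1 uM against untreated became 17 with spike-in scaling (17 higher, 0 lower, where 24.8% of all genes were higher), 1 with normexp, 1 where both arrays had to be above background and 12 at 1.5-fold; the median, 0.19, became 0.87 with spike-in scaling. At 0.01 uM, 1 gene, Mgmt, passed 1.5-fold in the main setting. With spike-in scaling 2 others, Mutyh and Rad54l, did and Mgmt did not, and the median was 0.31. For 1 uM against 0.01 uM the 3 genes became 6 with the 75th percentile of detected probes, 9 with spike-in scaling, 1 with normexp and 12 at 1.5-fold, and the median, 0.20, became 0.32 and 0.57 with the first 2 of these. Spike-in scaling, on 5 controls, moved the median of all genes to 0.63 at 1 uM and 0.35 at 0.01 uM against untreated, and to 0.31 at 1 uM against 0.01 uM. It adds 1 constant to every gene of an array, so it leaves differences between lists as they were. With it, 50 of 53 repair genes were above 0 at 1 uM, all but Mgmt, Nthl1 and Xpa, as were 85.0% of all genes. The repair median minus that of all genes at 1 uM was 0.23 in the main setting, 0.18 with loess and 0.04 with no filter on dim probes. The cause of these shifts was not tested.

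The share of 2-fold calls that were higher at 1 uM, over all genes, was 53.9% in the main setting, 94.6% with spike-in scaling and 39.2% with normexp. At 0.01 uM it was 61.5%, 92.8% with spike-in scaling, 73.5% with quantile normalization and 49.2% with detected probes. At 1 uM against 0.01 uM it was 44.6%, 78.7% with spike-in scaling, 57.7% with loess and 57.6% with detected probes. No repair gene difference of at least 1.5-fold in the main setting changed sign between settings. Some that passed 1.5-fold only in another setting did. At 1 uM Ercc6 was at -0.61 with quantile normalization and at 0.17 with spike-in scaling. Mlh3 was at 0.73 with spike-in scaling and at -0.07 with quantile normalization. No paired analysis was possible because each group has 1 array.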

Other observations

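Of the 46 repair genes with a promoter entry, 19 (41.3%) had a head-to-head neighbour, a gene on the opposite strand that points away and starts within 1000 bases, against 12.3% of 27025 genes. Both partners were compared at 1 uM in 13 pairs, and they lay on the same side of 0 in 4, against 48.9% of 546 such pairs over all genes. Apex1 had a log2 difference of 0.61 at 1 uM and Osgep, its neighbour, -0.28. Nthl1 had -0.93 and Tsc2 -0.10. Lig4 had 1.37 and Abhd13 0.52. The pairs were looked at after the values were known, and no test was made.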
